A study of Capra hircus with 11 samples.

Results

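The cytosolic ribosomal protein genes of goat mammary epithelial cells were described in 2 single-cell tables, one of CiMECs and one of GMECs. Members were taken by symbol, as every gene row named RPL or RPS with a number, RPLP with a number, or RPSA, and the rule found 74 genes in each table, among 16678 gene rows over the whole series. Of the 79 cytosolic ribosomal proteins of mammals, 47 belong to the large and 32 to the small subunit. The members covered 43 of the large and 31 of the small subunit proteins. RPL17, RPL34 and RPL41 would fit the rule but gave no row under those symbols and were not analysed here, while FAU, which encodes a ribosomal protein fused to a ubiquitin-like protein, falls outside the rule by name and is given separately.

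CiMECs were goat ear fibroblasts that had been kept for 8 days in BFRTV, an induction medium of small molecules, and were then passaged in goat mammary epithelial cell medium. GMECs were naturally derived goat mammary epithelial cells, and no induction is given for them. The labels assign 1 sample to CiMECs and 2 samples to GMECs, but the barcodes of a group sit together in a single table with no mark of the sample, so neither group has a replicate and no test was possible. The 3 earlier groups, the fibroblasts before induction (BFRTV0d) and after 4 and 8 days (BFRTV4d, BFRTV8d), had no row that matched the rule, and they enter only for genes outside it. The labels give neither the number of donor animals nor the passage of either cell type.

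The CiMECs table held 5188 barcodes and 97203521 UMIs (unique molecular identifiers, which count captured mRNA molecules), and the GMECs table held 5641 barcodes and 111001606 UMIs, with median depths of 17232 and 19424 UMIs per barcode. Simple epithelial keratins were high in both, with KRT8 at 4771 CPM in CiMECs and 5570 CPM in GMECs, where CPM is a gene's UMIs per 1000000 UMIs of the table. Secretory luminal markers were low, since the summed level of a list of 12 such genes was 8.61 CPM in CiMECs and 103 CPM in GMECs. None of them reached 10 CPM in CiMECs and 1 did in GMECs. The secretory gene PIGR was at 94.4 CPM in GMECs and had no row in CiMECs. PTPRC, which marks leukocytes, was listed in neither table. Of 15 fibroblast genes 9 were listed in CiMECs and 5 in GMECs, with summed levels of 2757 CPM in CiMECs, where 1 of them reached 10 CPM, and 836 CPM in GMECs, where 2 did, and the collagen gene COL1A1 was at 3.59 CPM in CiMECs and had no row in GMECs. All intervals below are 95% intervals that cover counting error only, and they do not measure the spread between cultures or animals.

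Ribosomal proteins fold around the ribosomal RNAs and build a small subunit, which reads the mRNA, and a large subunit, which joins the amino acids. In assembled ribosomes nearly all of them are present in a single copy, and the acidic stalk proteins, which recruit the elongation factors, are present in more than one. Their mRNAs carry a run of pyrimidines at the start of the message and are translated together when the mTOR pathway is active, and cells that grow or divide fast hold many of them.

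Ribosomal protein mRNAs made up 25.6% of all UMIs in CiMECs (interval 25.62 to 25.64) and 35.0% in GMECs (34.97 to 34.99). The CiMECs over GMECs ratio of these shares was 0.733. Expressed per UMI of all other genes the ratio was 0.641, since a smaller ribosomal share leaves more of the total to other genes. Levels on that second scale, a gene's UMIs per 1000000 UMIs of genes outside the rule, are called outside-rule CPM below. Both values compare 2 pooled tables, and the spread between samples is unknown. Whether the 2 GMECs samples are separate libraries or runs of 1 library is not stated in the labels.

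The difference was spread over the whole population of barcodes. The median share per barcode was 23.6% in CiMECs and 34.1% in GMECs. In CiMECs the range from the 5th to the 95th percentile ran from 15.02% to 41.2%, and in GMECs it ran from 19.6% to 45.0%, so the distributions overlapped widely. Shares above 40% were found in 5.71% of CiMECs barcodes and in 26.3% of GMECs barcodes, and shares below 20% in 24.3% of CiMECs barcodes and 5.44% of GMECs barcodes.

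**Figure D1:**
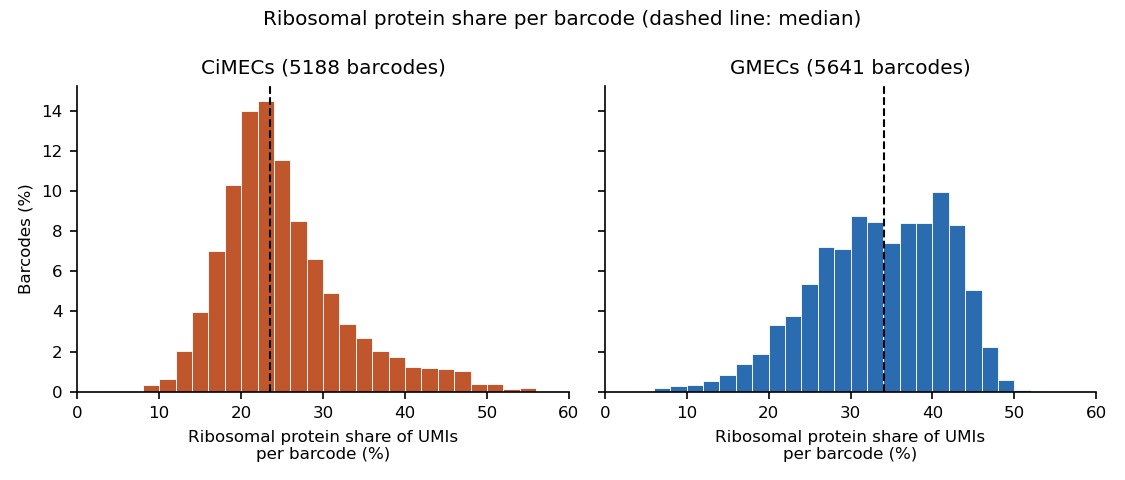
Histograms of the share of each barcode's UMIs that came from the 74 ribosomal protein genes (x axis, %), with the percentage of barcodes on the y axis, CiMECs on the left and GMECs on the right. The dashed medians lie at 23.6% in CiMECs and 34.1% in GMECs, and CiMECs have a tail to high shares while the GMECs histogram is broad.

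After every barcode with at least 3000 UMIs was thinned to 3000, which left out 837 CiMECs and 889 GMECs barcodes, the standard deviation of the share was 7.68 percentage points in CiMECs and 7.05 in GMECs. Binomial sampling at that depth would give 0.802 percentage points in CiMECs and 0.873 in GMECs. Cells within each table therefore differed in their ribosomal protein share by far more than counting error.

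The share also moved with the depth of the barcode. It was 18.4% in CiMECs and 23.5% in GMECs among barcodes with fewer than 1000 UMIs. It was highest among barcodes with 10000 to 20000 UMIs, at 27.7% in CiMECs and 37.8% in GMECs, and was 24.2% in CiMECs and 30.8% in GMECs from 40000 UMIs upward. In every one of the 7 depth classes CiMECs were below GMECs. The smallest gap was between 2000 and 10000 UMIs, with 22.7% and then 26.3% in CiMECs against 25.1% and then 29.0% in GMECs.

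Clusters were made in each table without the ribosomal protein genes, so that their share could be read across clusters that they had not defined. In CiMECs the share was 26.8% in cluster 4, which was led by the cycling genes CENPF, UBE2C, AURKA and CCNB1. It was 25.5% in cluster 1 (ANKRD1, IL18), 26.5% in cluster 2 (TNFRSF12A, PLAU) and 23.2% in cluster 3 (DMKN, S100A8). The highest value, 33.8%, belonged to cluster 7, only 77 barcodes led by COL1A1, ACTG2 and ACTA2, and the lowest values of 23.2% and 22.6% to clusters 5 and 6, whose median depths were 989.5 and 1964 UMIs.

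In GMECs the cycling-led cluster 1 (TOP2A, MKI67, CENPF) had a share of 36.2%. Cluster 3, led by the growth factor carrier FGFBP1 and the cholesterol synthesis gene HMGCS1, had the highest share, 40.3%. Its cycling transcripts summed to 648 outside-rule CPM, against 3837 in cluster 1 and 3725 in cluster 6. They were lower still in clusters 2 (387), 5 (414) and 7 (602), and were at 1875 in the low-depth cluster 4. Cluster 7, led by the keratin gene KRT14 and the kallikrein gene KLK10, had 29.9%, cluster 2 (CD24, SPP1) had 31.6% and cluster 4, with a median of 922 UMIs, had 28.8%. Clusters 5 and 6 had 35.5% and 36.2%. When only the cycling-led clusters were set side by side (cluster 4 of CiMECs, clusters 1 and 6 of GMECs), the share was 26.8% in CiMECs and 36.2% in GMECs, a gap close to that of the whole tables. Over the whole tables the summed level of 32 cycling genes was 499 CPM in CiMECs and 1102 CPM in GMECs, with 12 and 30 of them at 10 CPM or more. The part of cell division in the difference between the tables was not tested.

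**Figure D2:**
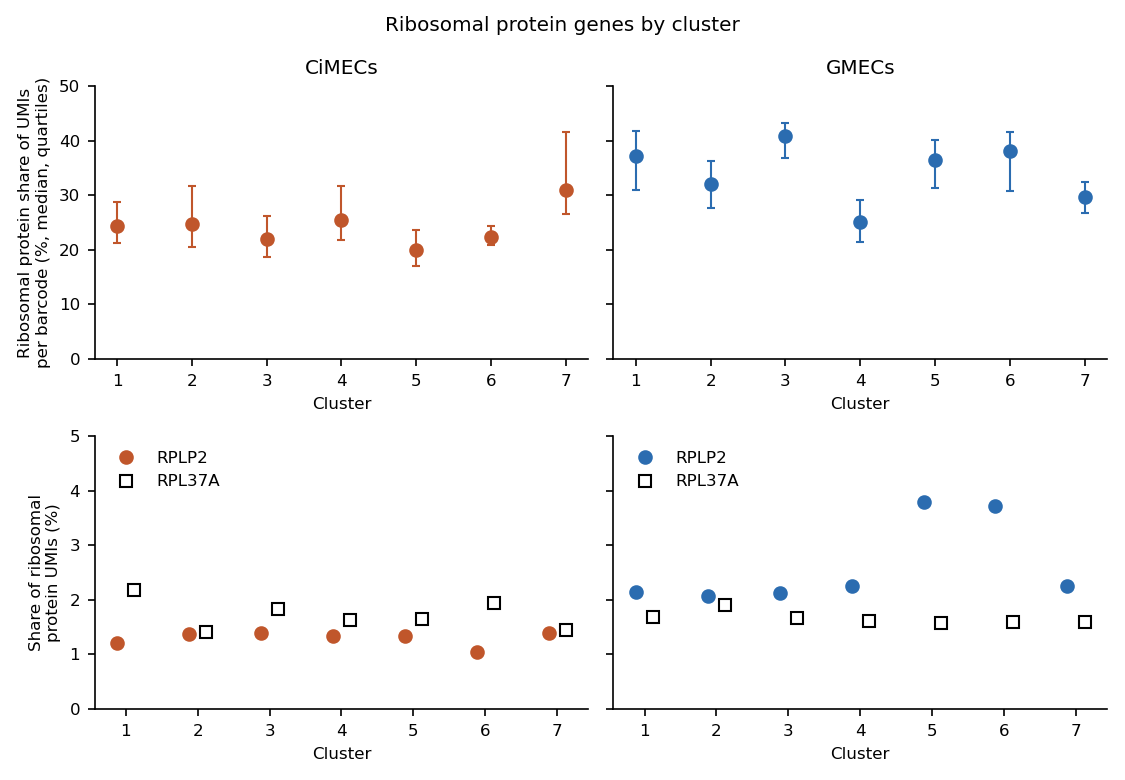
Top row: median ribosomal protein share of UMIs per barcode (%) with quartiles as bars, by cluster, for CiMECs on the left and GMECs on the right. Bottom row: the share of RPLP2 (filled circles) and RPL37A (open squares) in the ribosomal protein UMIs of each cluster, where RPLP2 reaches 3.79% and 3.72% in GMECs clusters 5 and 6 and RPL37A reaches 2.18% in CiMECs cluster 1.

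Gene by gene, the lower share in CiMECs was shared by most members. The CPM was lower in CiMECs for 71 of 74 genes, and the median log2 fold was -0.44, against -0.27 for the 6056 genes with at least 10 CPM in either table. Since that median lies below 0, more of those genes were lower than higher too, and their exact share was not counted. The count of 71 is relative to the table totals, since it became 55 under TMM factors, 51 under median-of-ratios factors and 74 in outside-rule CPM. The median log2 fold of all genes was then -0.02, 0.03 and -0.46. Under those scalings the log2 folds of all genes moved by 0.24 (TMM) and 0.29 (median of ratios), so the members stayed 0.18 below the median of all genes on the log2 scale. That distance depends on the minimum level, since it was 0.48 among genes with at least 50 CPM. Genes of similarly high level ran the other way. Over the 114 genes outside the rule with at least 1000 CPM the median log2 fold was 0.43 by table total and 0.24 in outside-rule CPM. By table total 42.1% of them were at least 1.5-fold higher in CiMECs and 13.2% at least 1.5-fold lower.

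A difference of at least 1.5-fold was found for 25 members that were lower in CiMECs, where 34.1% of all tested genes were that much lower. No member was at least 1.5-fold higher, where 16.1% of all tested genes were. At least 2-fold lower were 4 members (background 17.0%), and none was at least 2-fold higher (background 8.03%). These shares of all tested genes are by table total and were not counted under the other scalings. The folds of the members ran from 0.374 to 1.12, and they lay closer together than those of all genes, with log2 quartiles of -0.66 and -0.24 for the members and of -0.78 and 0.32 for all genes.

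**Figure D3:**
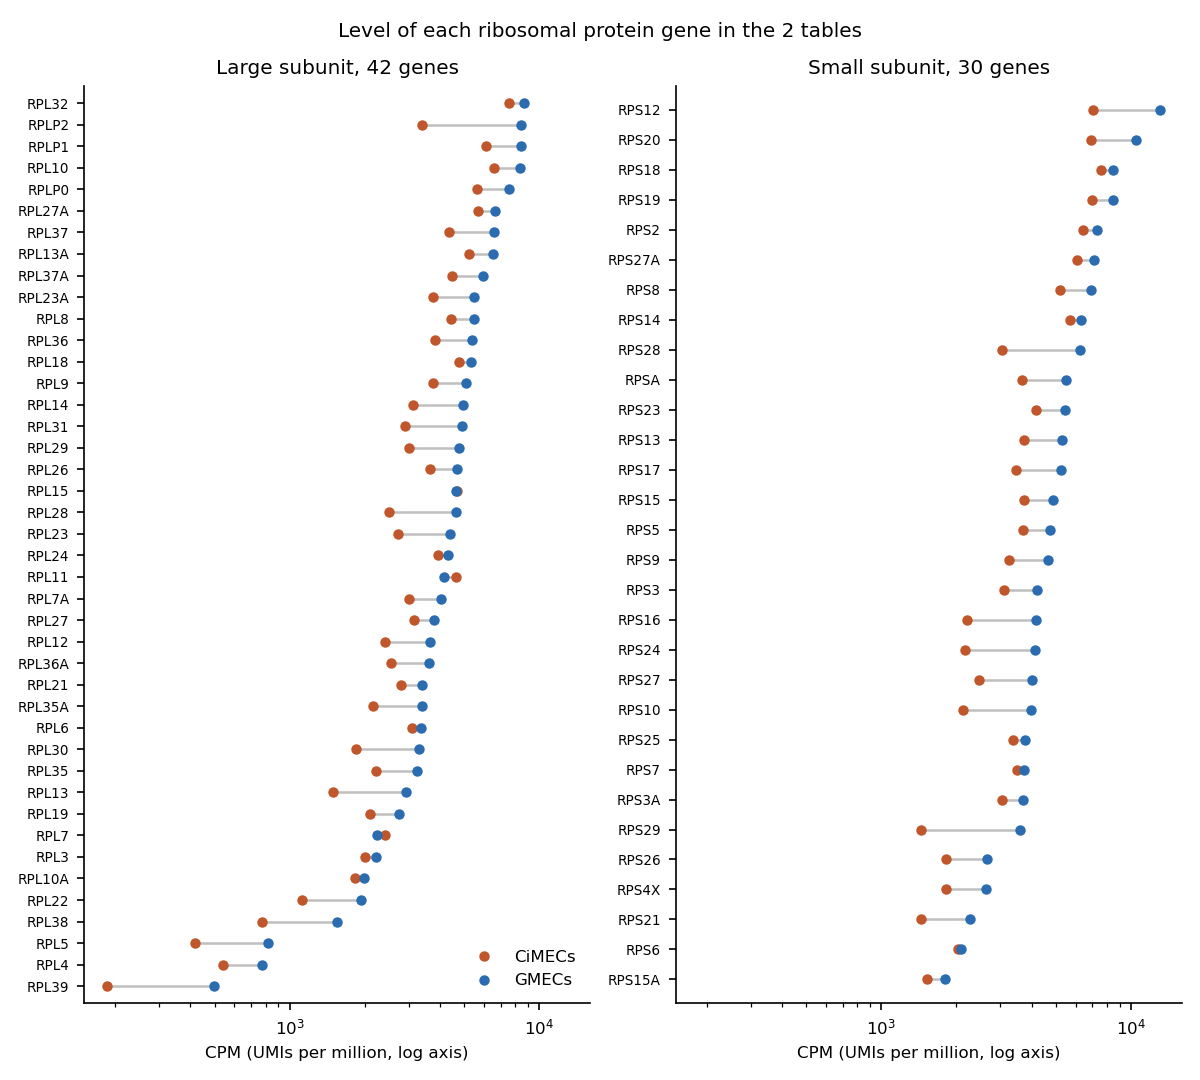
CPM (log axis) of 42 large subunit genes (left panel) and 30 small subunit genes (right panel), with CiMECs in orange and GMECs in blue joined by a grey line, ordered by the GMECs level. Nearly all orange points lie left of the blue ones, with long lines for RPL39, RPLP2 and RPS29, and RPL11 lies the other way.

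The 2 subunits had nearly the same folds. The 43 large subunit genes had a median log2 fold of -0.44, with 15 at least 1.5-fold lower, and the 31 small subunit genes had a median of -0.45, with 10 at least 1.5-fold lower. The small subunit took 44.9% of the ribosomal protein UMIs in CiMECs and 45.5% in GMECs. Across barcodes thinned to 3000 UMIs that proportion had a standard deviation of 2.30 percentage points in CiMECs and 1.85 in GMECs, against 1.85 in CiMECs and 1.57 in GMECs from sampling, so most of its spread was counting error.

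Levels of single members differed widely within a table although the ribosome holds them in near-equal numbers. Since this kit tags each transcript once at its 3′ end, CPM can be set side by side between genes without a correction for length. CPM ranged from 185 (RPL39) to 7548 (RPS18) in CiMECs and from 495 (RPL39) to 13080 (RPS12) in GMECs, and 70 of the 74 genes exceeded 1000 CPM in both. The 8 most abundant members held 21.5% of the ribosomal protein UMIs in CiMECs and 21.3% in GMECs, and 7 genes stood in both lists.

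Those leading genes stood in a different order in the 2 tables. RPS12, a small subunit protein known in Drosophila for its part in competition between cells, was at 7060 CPM in CiMECs, where it ranked 3, and at 13080 CPM in GMECs, where it ranked 1. RPS20, of the small subunit head, was at 6887 CPM in CiMECs and 10443 CPM in GMECs. RPS18, also of the head, was at 7548 CPM in CiMECs, the highest member there, and at 8487 CPM in GMECs. RPL32 of the large subunit stood at 7529 CPM in CiMECs and 8675 CPM in GMECs. RPS19, the gene most often affected in Diamond-Blackfan anaemia in humans, had 6951 CPM in CiMECs and 8436 CPM in GMECs. RPL10, a late addition to the large subunit, had 6575 CPM in CiMECs and 8332 CPM in GMECs. The other leaders in GMECs were the stalk genes RPLP1 and RPLP2.

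The least abundant members were all of the large subunit. RPL39, a small protein that lines the exit tunnel, was lowest in both tables. Next to it, in an order that differed between the tables, were RPL5 with 418 CPM in CiMECs and 821 CPM in GMECs, RPL4 with 539 CPM in CiMECs and 772 CPM in GMECs, and RPL38 with 774 CPM in CiMECs and 1545 CPM in GMECs. Ribosomal protein genes have many near-identical retrocopies in mammalian genomes, and reads that match several copies may be lost from counts, so the level of 1 gene against another is uncertain. How much of the differences in level came from such copies was not tested.

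To compare the balance between single proteins, each gene's share in the ribosomal protein UMIs of its table was used, which removes the difference of the whole family. By this measure 44 of the 74 genes were within 1.2-fold of each other in the 2 tables. At least 1.5-fold lower in CiMECs were 4 genes (5.41% of the members), and 1 was at least 1.5-fold higher (1.35%). The 4 genes RPL39, RPLP2, RPS29 and RPS28 together took 3.15% of the ribosomal protein UMIs in CiMECs and 5.37% in GMECs.

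RPL39 (gene26968) took 0.0724% of the ribosomal protein UMIs in CiMECs and 0.142% in GMECs, a fold of 0.511 (0.502 to 0.519). In CPM it had 185 in CiMECs and 495 in GMECs, the lowest CPM fold of all members at 0.374. At 3000 UMIs per barcode it was seen in 41.5% of CiMECs barcodes and 76.4% of GMECs barcodes. The gene was thus both the scarcest member and the one that differed most.

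RPS29 (gene10690) and RPS28 (gene8075) encode short proteins of the small subunit head, RPS29 with a bound zinc ion. RPS29 took 0.564% in CiMECs and 1.03% in GMECs, a fold of 0.550 (0.547 to 0.553), and its CPM was 1445 in CiMECs and 3586 in GMECs. RPS28 took 1.19% in CiMECs and 1.79% in GMECs, a fold of 0.664 (0.661 to 0.667), with 3048 CPM in CiMECs and 6265 CPM in GMECs. RPL38, the large subunit protein that in mice is needed for the translation of certain Hox mRNAs, lay just inside the 1.5-fold limit at 0.683. RPL13 at 0.691, RPL5 at 0.694 and RPS24 at 0.718 came next.

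The 3 stalk genes differed in their balance. RPLP0, which anchors the stalk to the large subunit, took 2.19% of the ribosomal protein UMIs in CiMECs and 2.16% in GMECs. RPLP1 took 2.38% in CiMECs and 2.41% in GMECs, so its share was nearly equal. RPLP2 (gene26054), the partner of RPLP1 in the stalk dimers, took 1.32% in CiMECs and 2.41% in GMECs, a fold of 0.548 (0.546 to 0.550). It ranked 34 among the members in CiMECs and 5 in GMECs. In GMECs RPLP1 and RPLP2 were thus at the same level, 8435 and 8437 CPM, whereas in CiMECs they were at 6111 and 3386 CPM. The whole stalk came to 5.89% in CiMECs and 6.99% in GMECs.

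RPL5 and RPL11 differed in opposite directions. Both bind the 5S ribosomal RNA, are built into the large subunit as one particle, and can bind and inhibit MDM2, the ubiquitin ligase of p53. RPL11 (gene1189) was the only member past 1.5-fold upward, with 1.81% of the ribosomal protein UMIs in CiMECs and 1.19% in GMECs, a fold of 1.52 (1.518 to 1.531). RPL5 took 0.163% in CiMECs and 0.235% in GMECs. The RPL11 value lies close to the limit, and within the cycling-led clusters alone no gene passed it.

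RPL11, RPL7 and RPL15 were the only members with a higher CPM in CiMECs than in GMECs by table total, a direction that all 3 lost in outside-rule CPM. RPL11 had 4647 CPM in CiMECs and 4160 CPM in GMECs. RPL7 had 2398 CPM in CiMECs and 2233 CPM in GMECs, and RPL15 had 4681 CPM in CiMECs and 4648 CPM in GMECs. High in balance too were RPS6, the main ribosomal target of S6 kinase, whose share in the ribosomal protein UMIs had a fold of 1.33, RPS7 with 1.28 and RPL10A with 1.25.

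**Figure D4:**
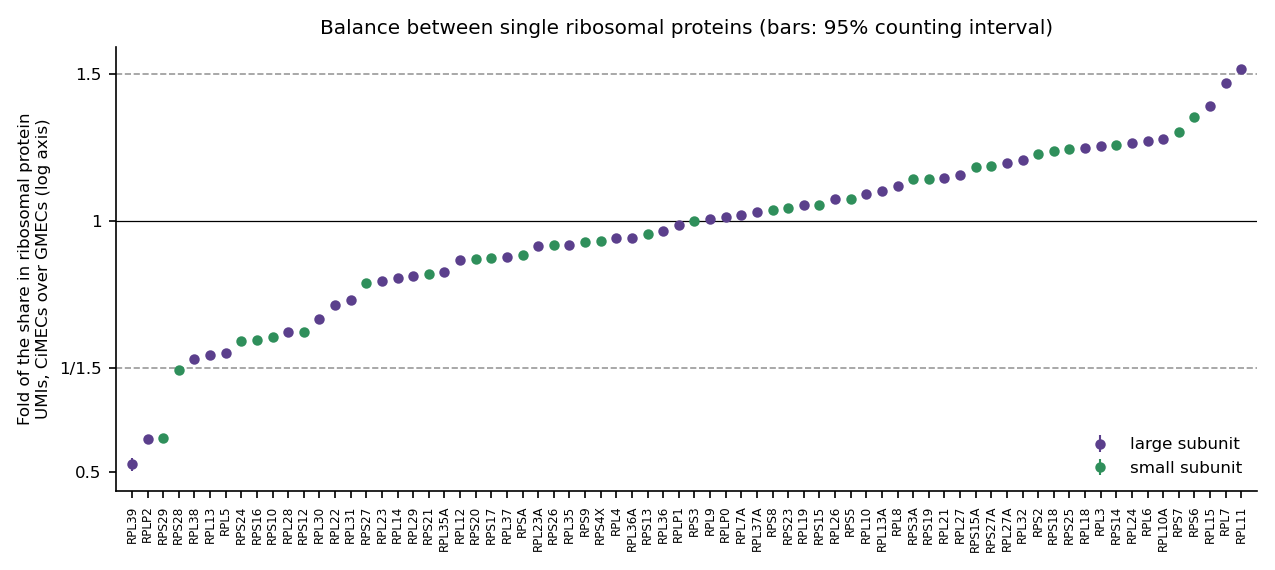
Fold of each gene's share in the ribosomal protein UMIs, CiMECs over GMECs (y axis, log scale, bars for the 95% counting interval), for 72 of the genes in order, large subunit in purple and small subunit in green, with dashed lines at 1.5-fold. RPL39, RPLP2, RPS29 and RPS28 lie below the lower line, RPL11 lies just above the upper one, and both subunits are mixed along the order.

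Variation between barcodes was measured as the variance of a gene's count over the variance that binomial sampling from the barcode's ribosomal protein UMIs would give, at 3000 UMIs per barcode (4351 CiMECs and 4752 GMECs barcodes). A value of 1 means no variance beyond that sampling, and the index tends to 1 for scarce genes by its construction. The median was 1.41 in CiMECs and 1.19 in GMECs at that depth, and 1.76 in CiMECs and 1.33 in GMECs at 6000 UMIs. The lowest values in CiMECs were 1.07 for RPL39, the scarcest member with a mean of 0.567 UMIs per barcode, 1.12 for both RPL22 and RPS6, and 1.15 for RPL6. Low values in GMECs were 1.02 for RPS15A, 1.06 for RPL14 and 1.07 for RPL21.

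One gene in each table stood far above the rest, and not the same one. In CiMECs it was RPL37A with 3.49, against 1.44 in GMECs. In GMECs it was RPLP2 with 3.31, against 1.36 in CiMECs. Next in CiMECs were RPS12 with 2.34, RPL13A with 2.30 and RPS27 with 2.20, and in GMECs RPS12 with 1.66, RPS20 with 1.55 and RPS28 with 1.51. At 6000 UMIs per barcode RPL37A gave 5.47 in CiMECs and RPLP2 gave 5.81 in GMECs, and the index grows with depth by its construction.

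**Figure D5:**
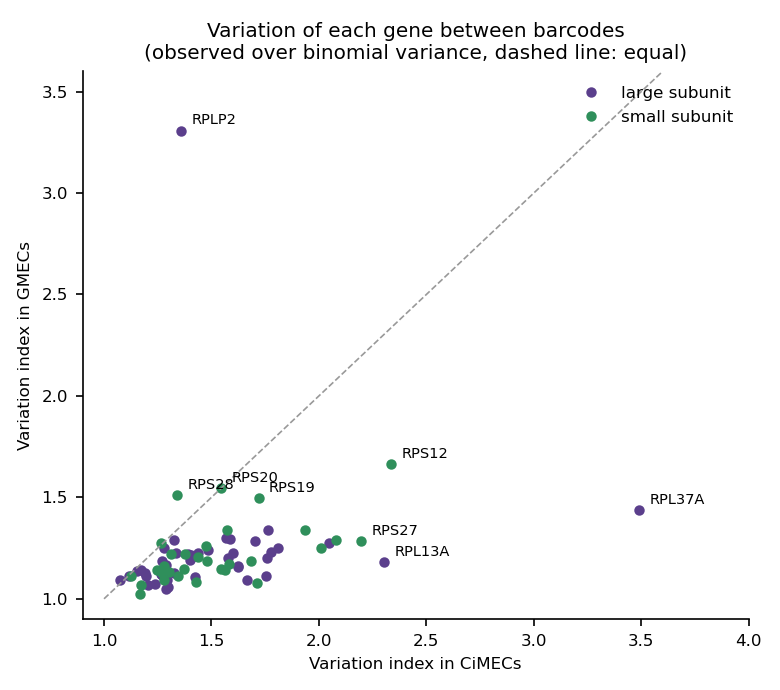
Variation index of each of the 74 genes between barcodes (observed over binomial variance at 3000 UMIs) in CiMECs on the x axis and in GMECs on the y axis, large subunit in purple and small subunit in green, with a dashed line where both are equal. RPLP2 stands alone at 3.31 in GMECs, RPL37A stands alone at 3.49 in CiMECs, and most genes lie below the line.

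RPL37A, a zinc-binding protein of the large subunit, had the same overall share in both tables, 1.75% of the ribosomal protein UMIs in CiMECs and 1.71% in GMECs. Only its spread differed, with 5th and 95th percentiles over barcodes of 0.794% and 3.81% in CiMECs and of 0.980% and 2.54% in GMECs. In CiMECs it was highest in cluster 1 (2.18%) and lowest in cluster 2 (1.40%), the largest pair of clusters. In GMECs its clusters ranged from 1.57% in cluster 5 to 1.90% in cluster 2.

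Within CiMECs barcodes the RPL37A count, given the barcode's ribosomal protein UMIs, ran with those of other members. For this, each count was taken as its deviation from the count expected from those UMIs, over the standard deviation of binomial sampling. Pearson r of these deviations was 0.54 with RPS27, another zinc-binding protein, 0.44 with RPL24, 0.41 with RPL36A and 0.38 with RPL37. RPL37A ran opposite to RPSA (r = -0.44), RPLP1 (-0.44), RPL13 (-0.43) and RPL7A (-0.42). RPSA is a small subunit protein also known as the laminin receptor, and RPL7A belongs to the large subunit. These are correlations over 4351 barcodes of 1 library that share depth and free RNA, and they are given as a description of 2701 pairs.

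Of the abundant genes outside the rule, those most like RPL37A in CiMECs were the ATP synthase subunit gene ATP5E (r = 0.59), the ATP synthase inhibitor gene ATPIF1 (0.54), the actin-binding thymosin gene TMSB10 (0.52) and the respiratory complex I gene NDUFC1 (0.45). ACTG1 (-0.42) and KRT19 (-0.39), a cytoskeletal actin and a simple keratin, ran most against it. Here r is between the RPL37A deviation and the other gene's share of the barcode's UMIs outside the rule. Cluster 1 had a median of 16234 UMIs and 2460 genes per barcode and cluster 2 had 23817 UMIs and 3477 genes. The part of depth or RNA quality in this axis was not tested.

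The spread of RPLP2 in GMECs lay in a few clusters. Its share of the ribosomal protein UMIs was 3.79% in cluster 5, led by the chemokine genes CCL20 and CXCL8 and the ferritin heavy chain gene FTH1, and 3.72% in cluster 6, led by CENPF and CCL20. In the other 5 GMECs clusters it was 2.06% to 2.25%, and in all 7 CiMECs clusters 1.04% to 1.40%. Clusters 5 and 6 together held 829 barcodes, 14.7% of the table.

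No other member did the same. In clusters 5 and 6 over the other 4 deep clusters (3966 barcodes), the RPLP2 share was 3.76% against 2.13%, a fold of 1.77, while the other 73 members had folds between 0.810 (RPL22) and 1.13 (RPLP0). The summed ribosomal protein share itself was 35.8% in clusters 5 and 6 and 34.9% in the rest. RPLP2 was also the only member placed on its chromosome in the RefSeq gene table of the goat assembly ARS1.2.

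Other genes of that chromosome were higher in the same barcodes. Over 140 genes of the RPLP2 chromosome with at least 30 outside-rule CPM, the median log2 fold of clusters 5 and 6 over the other deep clusters was 0.73. Of the 140 genes 128 were higher, and the share of all genes that were higher was not counted. A second chromosome, which holds no member, had a median of 0.44 over 101 genes, and the remaining 28 had medians between -0.15 and 0.04. FAU, one of the ribosomal genes outside the rule, lies on the RPLP2 chromosome too and had 10645 outside-rule CPM in clusters 5 and 6 and 6011 in the rest. EEF1G, a subunit of an elongation factor, had 4443 in clusters 5 and 6 and 2389 in the rest, and FTH1 had 67389 in clusters 5 and 6 and 19254 in the rest.

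This pattern was looked for after the RPLP2 values had been seen, and genes of the chromosome other than RPLP2 helped to define the clusters, so the medians describe the clusters and test nothing. The RPLP2 deviation, taken as for RPL37A, ran with FTH1 (r = 0.50), FAU (0.48), TXN (0.38), CFL1 (0.35) and EEF1G (0.31) over 4752 GMECs barcodes. TXN, which encodes thioredoxin, does not lie on the RPLP2 chromosome, and its level in clusters 5 and 6 over the other deep clusters had a fold of 1.96, above the 1.77 of FAU and the 1.86 of CFL1 and of EEF1G. In CiMECs the r of RPLP2 with abundant genes outside the rule stayed between -0.17 (TMSB10) and 0.13 (CRIP1). Clusters 5 and 6 do not account for the whole difference between the tables, since without them the CiMECs over GMECs fold of the RPLP2 share was 0.621, against 0.548 with them.

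Most members moved with the family from cell to cell. The median r of a member with the sum of the others, at 3000 UMIs, was 0.59 in CiMECs and 0.53 in GMECs, with RPS18 highest in CiMECs at 0.82 and RPS12 highest in GMECs at 0.77. RPL38 was lowest in both, at -0.00 in CiMECs and 0.10 in GMECs. At that depth 90.3% of CiMECs and 98.8% of GMECs barcodes had at least 1 RPL38 UMI. RPL39, which is scarcer, reached 0.20 in CiMECs and 0.28 in GMECs.

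Outside the rule, the genes whose level per barcode ran most closely with the family were mostly those of the translation machinery. In CiMECs they included EEF1G (r = 0.66), the small subunit scaffold RACK1 (0.62), the elongation factor subunit EEF1B2 (0.58) and TPT1 (0.57). In GMECs RACK1 (0.54) and TPT1 (0.54) led among genes with a symbol, followed by RPL36AL (0.47). Genes that ran against the family in GMECs were the chemokine gene CCL17 (-0.55), the simple keratin KRT8 (-0.54) and the osteopontin gene SPP1 (-0.53), and in CiMECs MYL6 (-0.44), CRABP2 (-0.43) and SPP1 (-0.41). Shares of 1 barcode sum to the whole, so a negative r arises in part from the arithmetic.

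Genes whose protein is made as a fusion were close to the family. FAU, whose product is a small subunit protein with a ubiquitin-like part, had 3499 CPM in CiMECs and 4413 CPM in GMECs, a fold of 0.793 (0.789 to 0.796). RPS27A, the ubiquitin fusion inside the rule, had 6073 CPM in CiMECs and 7116 CPM in GMECs. FAU was listed in all 5 tables. In outside-rule CPM it was at 2640 on day 0, 6249 on day 4 and 6181 on day 8 of induction, at 4705 in CiMECs and at 6787 in GMECs.

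Of 10 paralogs that the rule leaves out, 5 were listed. RPL22L1, the paralog of the large subunit protein RPL22, was at 57.4 CPM in CiMECs and 12.6 CPM in GMECs, a fold of 4.56 (4.30 to 4.84). RPL22 itself was at 1116 CPM in CiMECs and 1921 CPM in GMECs. In mice RPL22 is known to hold RPL22L1 down, and whether that bears on these values was not tested. RPL36AL, a paralog of RPL36A, was at 1163 CPM in CiMECs and 1833 CPM in GMECs, a fold of 0.635, while RPL36A had a fold of 0.700. RPS27L, a p53 target in human cells, had a fold of 1.19, RPL26L1 of 1.43 and RPL7L1 of 1.04.

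Factors that build ribosomes had a lower median fold than the ribosomal proteins themselves. Of 28 biogenesis genes with at least 10 CPM in either table, 18 were at least 1.5-fold lower and none higher, with a median log2 fold of -0.72 (background 34.1% and 16.1% of all genes). Under TMM factors 13 were at least 1.5-fold lower and 1 higher, with a median of -0.48 against -0.02 for all genes. NCL (nucleolin) had 74.7 CPM in CiMECs and 184 CPM in GMECs, a fold of 0.406. UBTF, a transcription factor of the ribosomal RNA genes, had a fold of 0.356 and GNL3 (nucleostemin) of 0.360.

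Of 8 elongation genes 4 were at least 1.5-fold lower in CiMECs and none higher (34.1% and 16.1% of all genes), with a median log2 fold of -0.64. EEF2, which moves the ribosome along the mRNA, had 301 CPM in CiMECs and 630 CPM in GMECs. Of 28 initiation genes 11 were at least 1.5-fold lower and 1 was higher, with a median of -0.36, and the share of lower ones was near the 34.1% of all genes. Under median-of-ratios factors 8 were lower and 6 higher, with a median of -0.07 against 0.03 for all genes. PABPC1, the poly(A)-binding protein, had 109 CPM in CiMECs and 317 CPM in GMECs, a fold of 0.343. EIF6, which keeps free large subunits from joining small ones, was the gene past 1.5-fold upward by table total. It had 378 CPM in CiMECs and 178 CPM in GMECs, a fold of 2.12. By table total 19 of the 28 initiation genes had a log2 fold below 0, against 18 under TMM and 15 under median-of-ratios factors. The share of all genes below 0 was not counted, and their median by table total was -0.27.

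Of 6 rows of 5 ribosome-associated genes 2 were at least 1.5-fold lower in CiMECs, near the 34.1% of all genes, and 0 were higher. Under TMM and under median-of-ratios factors 0 were at least 1.5-fold lower. By table total all 6 rows had a log2 fold below 0, with a median of -0.51 against -0.27 for all genes. Under TMM and under median-of-ratios factors 4 of the 6 were below 0. The share of all genes below 0 was not counted. TPT1 had a fold of 0.570 for its main row and RACK1 of 0.680. Of 10 growth regulators 4 were at least 1.5-fold lower and 1 was higher, near the shares of 34.1% and 16.1% of all genes, and under TMM and median-of-ratios factors 1 was lower and 1 higher. MYC, a driver of ribosome production, was at 11.2 CPM in CiMECs and 20.9 CPM in GMECs, and CDKN1A, a cell cycle inhibitor and p53 target, at 482 CPM in CiMECs and 256 CPM in GMECs.

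Mitochondrial ribosomal proteins belong to a separate ribosome, and the direction of their median turned with the scaling. Over 73 such genes the median log2 fold was 0.00 by table total, 0.24 under TMM factors and -0.19 in outside-rule CPM, against -0.44, -0.20 and -0.64 for the cytosolic members under the same scalings. At least 1.5-fold higher were 8 and lower were 5 by table total (16.1% and 34.1% of all genes). These counts were 20 and 3 under TMM factors, 24 and 3 under median-of-ratios factors, and 5 and 8 in outside-rule CPM. The median of all genes was -0.27 by table total, -0.02 under TMM factors, 0.03 under median-of-ratios factors and -0.46 in outside-rule CPM. MRPL33 was at 327 CPM in CiMECs and 156 CPM in GMECs, a fold of 2.10, and MRPS21 had a fold of 1.87.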

How the data were processed

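Goat cells were captured with the 10x Single Cell 3′ kit V2, and the submitters' processing notes name Cell Ranger and FastQC 0.10.1. For the genome build, the annotation and the cell filter nothing is given in the labels. The authors deposited whole-number UMI counts per gene and barcode, 1 table per group. Every barcode of the CiMECs and GMECs tables (at least 500 UMIs each) was used. The paper at hand describes a bulk experiment, so the design was taken from the labels.

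Counts of each table were summed. Shares have exact Clopper-Pearson intervals and folds have exact intervals of the conditional binomial, at 95%. These cover counting error only. With 1 table per group no test was run and no adjusted p exists. Calls used 1.5-fold and 2-fold limits among genes with at least 10 CPM in either table. Thinning was to 3000 UMIs with a fixed seed, which was tested on simulated data.

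Clusters were made per table with scanpy 1.11.5 from 2000 variable genes and 30 components, by the Leiden method at resolution 0.5, with no ribosomal protein gene. No doublet caller was run, and the 5% of barcodes with most UMIs were left out as an alternative. The CiMECs and GMECs tables share 37 barcode names. Scaling factors came from edgeR 4.0.16 and DESeq2 1.42.0. Symbols were matched to the RefSeq ARS1.2 gene table (all 74 members, 16296 of 16677 symbols).

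Named genes were the 8 highest and 8 lowest in balance, the 8 highest and 4 lowest in level, the 4 most and 4 least variable, the stalk, 5S, fusion and paralog genes, and up to 4 of each surrounding list. A few genes that this rule takes are not reported here. Genes of the RPLP2 chromosome were added after their values were seen. Members and lists were chosen with earlier results of these data known.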

Additional observations from a re-analysis of the deposited data

How the results depend on the processing

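The share of ribosomal protein UMIs was lower in CiMECs in every alternative run. Barcodes of at least 2000 UMIs gave 25.67% in CiMECs and 35.05% in GMECs, those of at least 5000 UMIs gave 25.71% and 35.12%, and leaving out the 5% with most UMIs gave 25.87% and 35.60%. The mean of per-cell shares was 25.10% in CiMECs and 33.63% in GMECs, and the share without RPS12 was 24.92% and 33.67%. Chosen after the data were seen, leaving out the low-UMI clusters gave 25.67% and 35.05%, the cycling-led clusters alone gave 26.80% and 36.18%, and GMECs without clusters 5 and 6 gave 34.80%.

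The median log2 fold of -0.44 was -0.46 without the 5% of deepest barcodes, -0.43 as the mean of per-cell shares, -0.436 in the cycling-led clusters, -0.437 without GMECs clusters 5 and 6, -0.440 without RPS12 and -0.445 without the low-UMI clusters. It was -0.20 under TMM factors, -0.15 under median-of-ratios factors and -0.64 in outside-rule CPM. Members at least 1.5-fold lower then numbered 13, 12 and 43 in place of 25. The median log2 fold of all genes was -0.02, 0.03 and -0.46 in those scalings, where the share of all genes called was not counted. Among genes with at least 50 CPM the members lay 0.48 below the median of all genes on the log2 scale, in place of 0.18. In balance, 0 genes were at least 1.5-fold higher in the cycling-led clusters. Values for a wider gene list are not reported here.

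The small subunit share in CiMECs was 44.90% without the deepest 5%, 44.97% as the mean per cell, 43.31% without RPS12 and 45.01% in the cycling-led cluster. In GMECs it was 45.33% as the mean per cell, 43.40% without RPS12, 45.63% without clusters 5 and 6 and 45.66% in the cycling-led clusters. The lowest cluster share was 21.11% in CiMECs and 28.59% in GMECs at resolution 1.0, and 22.99% and 29.07% with 1000 variable genes. The highest was 40.86% in GMECs at resolution 1.0, and 33.21% in CiMECs and 39.01% in GMECs with 1000 variable genes. The cause of these shifts was not tested.

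No paired analysis was possible because each group is 1 table. Counting error is small for all members at these depths, while the spread between cultures, animals and libraries is unknown, and it limits every comparison of CiMECs with GMECs.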
